A study of Homo sapiens with 6 samples.

Results

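The 5 genes MSH6, MSH3, PMS2, MLH3 and PMS1 encode proteins of the DNA mismatch repair pathway. They were taken by symbol from a deposited table of read counts for 42656 genes, and each of the 5 had 1 row there. RNA was sequenced from TOV21G, an established line of ovarian clear cell carcinoma cells that is known for mismatch repair deficiency. The shMEX3A arm (genotype label MEX3A knockdown) carried the lentiviral hairpin TRCN230492 against MEX3A, an RNA-binding protein, and the shCtrl arm (genotype label WT) carried the scrambled hairpin TRC2-Scramble_ASN0003. Both arms received virus at a multiplicity of 50, in cells kept below or at 25 passages in 15% serum, and were harvested after 3 days, with 3 libraries each. Each arm rests on 1 hairpin in 1 cell line, and no file tells separate cultures from repeat preparations, so p-values measure only the spread between these libraries. The comparison asks how RNA levels differ when MEX3A is depleted.

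Mismatch repair removes base mispairs and small loops that DNA polymerase leaves behind. MutS-type proteins find the error, MutL-type proteins bind them and cut the new strand, and an exonuclease, a polymerase, a sliding clamp and a ligase then replace the cut stretch. MSH6 and MSH3 are MutS subunits that give their dimers different targets, MSH6 mostly single mispairs and MSH3 mostly larger loops. PMS2, MLH3 and PMS1 are alternative MutL subunits, of which PMS2 carries the main repair endonuclease, MLH3 acts chiefly in meiotic crossing over, and PMS1 has only a minor known part in repair. Cells without the pathway collect length changes in short repeats, known as microsatellite instability.

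The stretches around the transcription starts of the 5 genes are shown because motifs of transcription factors were searched there. Each runs from 120 bases before to 30 bases after the outermost RefSeq start (GRCh38.p14), read 5′ to 3′ on the strand of the gene, at chr2:47783025-47783174 (plus strand) for MSH6, chr5:80654532-80654681 (plus) for MSH3, chr7:6009077-6009226 (minus) for PMS2, chr14:75051438-75051587 (minus) for MLH3 and chr2:189784330-189784479 (plus) for PMS1. Capitals mark letters of the binding motif of E2F factors, the transcription factors of S phase entry, or of the CCAAT box.
MSH6: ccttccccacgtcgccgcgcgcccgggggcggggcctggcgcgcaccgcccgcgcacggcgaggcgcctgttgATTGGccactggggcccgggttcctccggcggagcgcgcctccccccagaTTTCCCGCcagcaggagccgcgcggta
MSH3: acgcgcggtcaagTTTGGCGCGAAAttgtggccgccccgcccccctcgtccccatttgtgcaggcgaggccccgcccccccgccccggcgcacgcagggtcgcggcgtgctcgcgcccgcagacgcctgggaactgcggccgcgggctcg
PMS2: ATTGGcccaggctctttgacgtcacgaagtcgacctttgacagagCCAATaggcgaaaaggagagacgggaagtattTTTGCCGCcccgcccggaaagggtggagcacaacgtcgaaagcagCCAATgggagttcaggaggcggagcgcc
MLH3: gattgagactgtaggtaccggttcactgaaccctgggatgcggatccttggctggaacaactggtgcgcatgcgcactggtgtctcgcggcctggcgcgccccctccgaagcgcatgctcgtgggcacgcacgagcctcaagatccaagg
PMS1: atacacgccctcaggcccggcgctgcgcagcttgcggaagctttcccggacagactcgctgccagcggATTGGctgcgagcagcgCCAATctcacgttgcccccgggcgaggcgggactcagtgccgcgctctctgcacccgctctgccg

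The E2F motif was searched as TTTGGCGC, TTTGCCGC, TTTCGCGC or TTTCCCGC on both strands, in windows of 300 bases from 250 before to 50 after the start. MSH6 held TTTCCCGC from base 4 to 11 after its start. MSH3 held a pair of matches that overlap each other, one on each strand, between 107 and 96 bases before its start. PMS2 held TTTGCCGC from 43 to 36 bases before its start. The windows of MLH3 and PMS1 held no match to these letters. Of 27305 RefSeq windows, 1 per gene, 3.34% held the motif, as did 5.24% of the 12001 windows whose genes were tested here. Among the tested genes with the motif 44.8% were called lower and 28.1% higher in shMEX3A, against 37.0% and 34.2% of all tested genes with a window. CCAAT on either strand was found 3 times in the window of PMS2, in 2 places in that of PMS1 and 1 time in that of MSH6, and it lay in 35.7% of all windows. These matches describe sequence and were not tested as binding sites.

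In the shCtrl arm all 5 genes were expressed, and PMS2 had the highest level per length by both lengths used here. Levels are TMM-scaled counts relative to the library total (CPM), divided by kilobases of exon in GENCODE 29. PMS2 stood at 12.03 ± 0.506 CPM per kilobase (SD, n = 3), higher than 72.5% of 12772 tested protein-coding genes. MSH6 followed at 7.28 ± 0.105 and MSH3 at 7.21 ± 0.243 CPM per kilobase, and these neighbours did not differ beyond their spread. PMS1 at 2.29 ± 0.0780 and MLH3 at 1.81 ± 0.0810 CPM per kilobase lay lower, above 29.9% and 25.8% of those genes. By this length the order in shMEX3A changed for MSH6 and MSH3 alone. There PMS2 was at 7.47 ± 0.195, MSH3 at 5.93 ± 0.213 and MSH6 at 5.36 ± 0.284 CPM per kilobase. PMS1 was at 2.74 ± 0.135 and MLH3 at 1.80 ± 0.101 CPM per kilobase. Levels were also divided by the longest transcript in place of all exons. In shCtrl they were then 16.6 for PMS2, 10.7 for MSH6, 8.29 for MSH3, 3.66 for PMS1 and 1.92 for MLH3. In shMEX3A they were 10.3 for PMS2, 7.88 for MSH6, 6.82 for MSH3, 4.37 for PMS1 and 1.91 for MLH3, the same order as in shCtrl. The order of MSH6 and MSH3 in shMEX3A, and the gap between them in shCtrl, thus depend on the length used. MSH6 exons in GENCODE 29 begin at base 47695530, before its RefSeq window at 47783025, and add up to 10993 bases. A shorter length would raise the level of MSH6, so its place below PMS2 also rests on the length used.

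**Figure D1:**
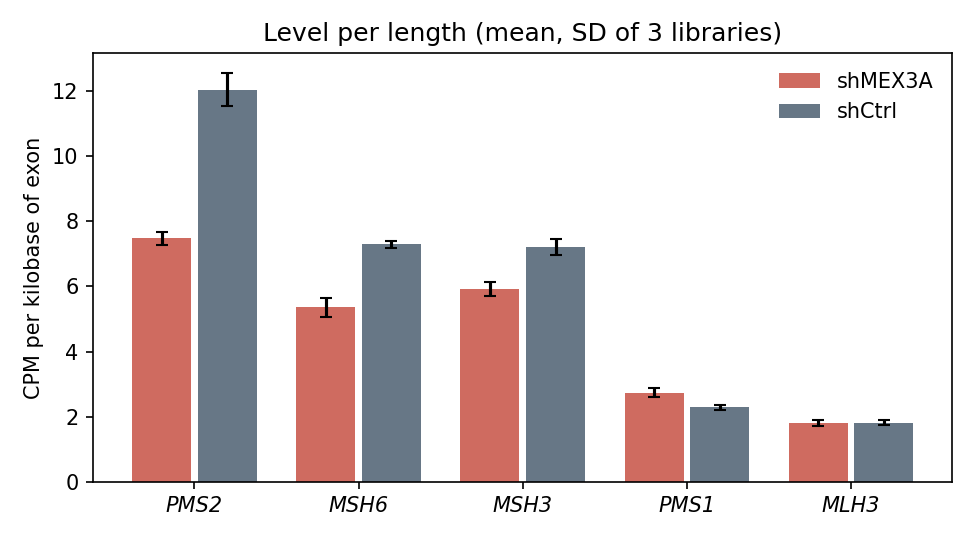
Mean CPM per kilobase of exon in shMEX3A (left bars) and shCtrl (right bars) for each gene, with the SD over 3 libraries. PMS2 leads in both arms, and MLH3 is lowest at 1.80 in shMEX3A and 1.81 in shCtrl.

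With MEX3A depleted, PMS2, MSH6 and MSH3 fell, PMS1 rose and MLH3 did not pass the test. Calls are adjusted p-values under 0.05 of edgeR's quasi-likelihood test over 15679 tested genes. Called were 4 of the 5 genes, where 69.7% of all tested genes were called, 34% higher and 35.6% lower. The libraries of the arms did not overlap for those 4 genes, which held for 72.3% of all tested genes, 35.4% with shMEX3A higher and 36.9% with it lower. A call is thus as common here as among other genes, and the values below give the size and direction of each. The knockdown itself was present, with MEX3A at 20.9 ± 1.31 CPM in shMEX3A and 69.0 ± 1.54 CPM in shCtrl (SD, n = 3 each; log2 fold change -1.72, SE 0.0462). In bulk RNA, fewer cells that express a gene and less RNA per cell cannot be told apart.

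**Figure D2:**
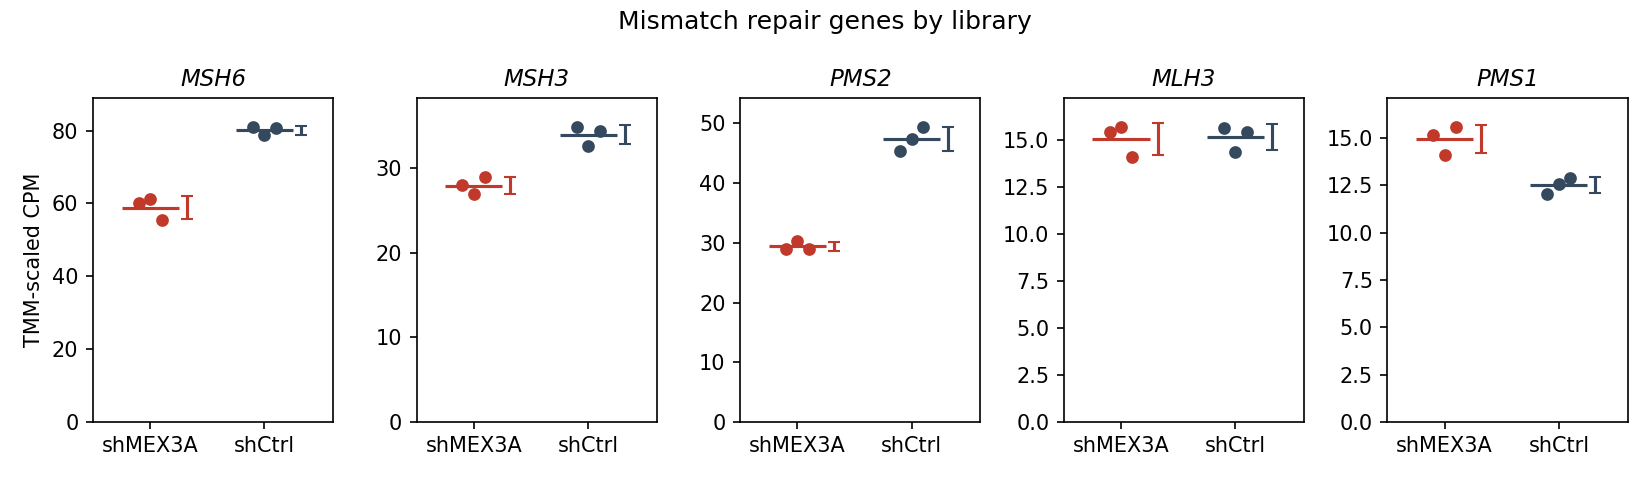
TMM-scaled CPM of each gene in the 3 shMEX3A (left) and 3 shCtrl libraries (right) on axes that start at 0. Points are libraries, horizontal lines are means and bars are SD. The arms are fully apart for MSH6, MSH3, PMS2 and PMS1, and overlap for MLH3.

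MSH6 occupies bases 47695530 to 47810101 of chromosome 2, plus strand (GRCh38, GENCODE 29). It stood at 60.2, 61.1 and 55.3 CPM in shMEX3A and at 80.9, 78.8 and 80.6 CPM in shCtrl. Every shMEX3A library lay below every shCtrl library, and shMEX3A replicate 3 was the lowest. The means were 58.9 ± 3.12 CPM in shMEX3A and 80.1 ± 1.15 CPM in shCtrl (SD, n = 3 each), a change of -26.4% (log2 fold change -0.44, SE 0.0389, adjusted p = 9.37e-13, edgeR). By log2 fold change 20.1% of tested genes lay lower than MSH6. Of its annotated exon bases 16.2% lie under exons of FBXO11, a ubiquitin ligase subunit on the opposite strand. The strand setting of the counting is not given in the sources used here, so reads there cannot be assigned with certainty. FBXO11 had 92.4 ± 2.75 CPM in shMEX3A and 90.4 ± 2.48 CPM in shCtrl and was not called (log2 fold change 0.03, adjusted p = 0.423, edgeR). Once GC content and length were offset, FBXO11 was called higher (0.17, adjusted p = 3.04e-05, edgeR).

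MSH3 occupies bases 80654648 to 80876460 of chromosome 5, plus strand. Its values were 28.0, 26.9 and 28.9 CPM in shMEX3A and 34.8, 32.6 and 34.4 CPM in shCtrl, with no overlap between the arms. The means of 27.9 ± 1.00 CPM in shMEX3A and 33.9 ± 1.14 CPM in shCtrl (SD, n = 3 each) gave a change of -18.0% (log2 fold change -0.29, SE 0.0496, adjusted p = 3.57e-06, edgeR). This was the smallest of the 3 falls, and 57.5% of tested genes changed by more in either direction. Offsets for GC content and length brought the value to -0.17, still called (adjusted p = 0.00190, edgeR).

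PMS2 occupies bases 5973239 to 6009125 of chromosome 7, minus strand. Its values were 28.9, 30.3 and 29.03 CPM in shMEX3A and 45.4, 47.3 and 49.3 CPM in shCtrl. The arms were far apart relative to their spread, and the shMEX3A libraries differed among themselves by less than the shCtrl libraries. The means were 29.4 ± 0.768 CPM in shMEX3A and 47.3 ± 1.99 CPM in shCtrl (SD, n = 3 each), a change of -37.8% (log2 fold change -0.68, SE 0.0461, adjusted p = 4.37e-16, edgeR). By log2 fold change 11.4% of tested genes lay lower, the furthest of the 5 genes toward the low end.

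PMS2 has duplicated copies on the same chromosome whose sequence is near that of PMS2, so reads can be split between them or lost by the counting. The table held 8 rows of this kind, PMS2CL and 7 PMS2P pseudogenes, all tested. Of these 2 were called higher and 1 lower, where 34% of all tested genes were called higher and 35.6% lower. PMS2P3 rose, at 6.49, 6.39 and 6.64 CPM in shMEX3A and 3.64, 3.36 and 3.09 CPM in shCtrl (log2 fold change 0.95, SE 0.106). PMS2P1, the copy with the highest level, had 14.6, 17.1 and 17.3 CPM in shMEX3A and 19.2, 17.9 and 17.8 CPM in shCtrl. Its call (log2 fold change -0.16, adjusted p = 0.0251, edgeR) was lost without shMEX3A replicate 1 (adjusted p = 0.256) or shCtrl replicate 1 (0.112), with DESeq2 (0.0837) and with GC and length offsets (0.0840). PMS2P5 was also called higher (0.38, SE 0.101), and PMS2CL, at 5.20 ± 0.224 CPM in shMEX3A and 4.50 ± 0.176 CPM in shCtrl (SD, n = 3 each), was not called (adjusted p = 0.0754, edgeR). PMS2P4 had 0.05, PMS2P7 -0.42, PMS2P9 0.13 and PMS2P2 0.02 on the log2 scale, and none of these 4 was called. The copies together held 37.4 to 40.6 CPM in shMEX3A and 35.97 to 37.2 CPM in shCtrl. When PMS2 and all 8 copies were summed into 1 row the fall was smaller but called (log2 fold change -0.28, SE 0.0370, adjusted p = 1.67e-08, edgeR).

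**Figure D3:**
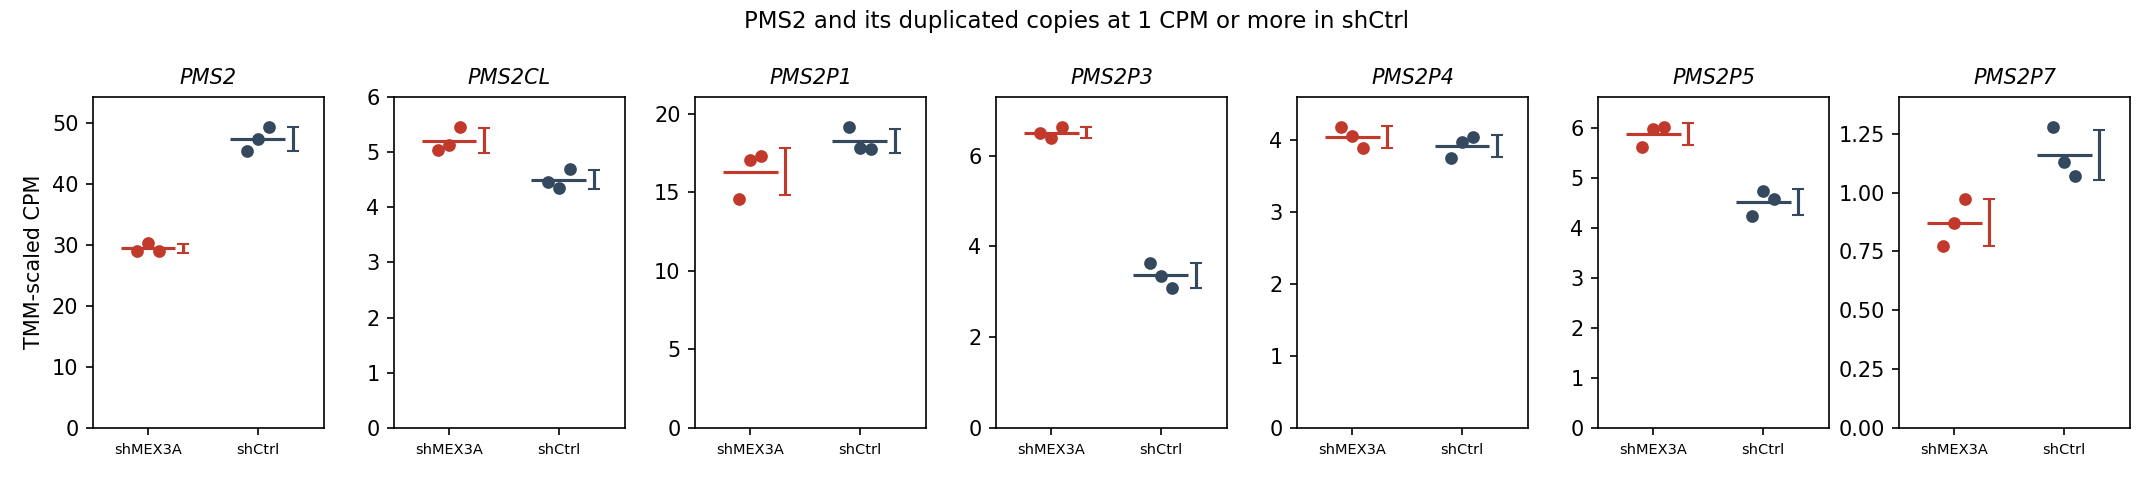
TMM-scaled CPM of PMS2 and of the 6 duplicated copies with at least 1 CPM on average in shCtrl, in shMEX3A (left) and shCtrl libraries (right), on separate axes that start at 0. Points are libraries, lines are means and bars are SD over 3 libraries. PMS2 is lower in shMEX3A, while PMS2P3 and PMS2P5 are higher there.

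MLH3 occupies bases 75013764 to 75051532 of chromosome 14, minus strand. It had 15.4, 15.7 and 14.1 CPM in shMEX3A and 15.7, 14.4 and 15.4 CPM in shCtrl, and the libraries of the arms were interleaved. The means of 15.1 ± 0.843 CPM in shMEX3A and 15.2 ± 0.678 CPM in shCtrl (SD, n = 3 each) differed by less than the spread (log2 fold change -0.01, adjusted p = 0.934, edgeR). The 95% interval of the log2 fold change ran from -0.14 to 0.13, so a change of the size seen for MSH3 lies outside it. Counts of 478 to 738 per library stand behind these values.

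PMS1 occupies bases 189784085 to 189877629 of chromosome 2, plus strand. It had 15.2, 14.1 and 15.5 CPM in shMEX3A and 12.1, 12.6 and 12.9 CPM in shCtrl. Every shMEX3A library was higher than every shCtrl library, which made PMS1 the only one of the 5 genes that rose. The means were 14.9 ± 0.739 CPM in shMEX3A and 12.5 ± 0.426 CPM in shCtrl (SD, n = 3 each), a change of 19.2% (log2 fold change 0.25, SE 0.0677, adjusted p = 0.00113, edgeR). Under GC and length offsets it came to 0.44 (adjusted p = 2.66e-07, edgeR).

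Counts of 2 genes within a library give a ratio that needs no scaling. Ratios with PMS2 use its own row alone, without reads that may fall on its duplicated copies. With the copies summed in, the log2 fold change of PMS2 was -0.28, and ratios of that sum were not computed. PMS2 counts per PMS1 count were 1.91, 2.15 and 1.87 in shMEX3A and 3.76, 3.76 and 3.83 in shCtrl. The arms did not overlap, and the mean difference was -0.94 on the log2 scale. PMS2 counts per MLH3 count were 1.87, 1.93 and 2.06 in shMEX3A and 2.89, 3.29 and 3.201 in shCtrl (-0.68 on the log2 scale). For the MutS pair the difference was smaller, with 2.15, 2.27 and 1.92 MSH6 counts per MSH3 count in shMEX3A and 2.32, 2.41 and 2.34 in shCtrl (-0.16). Without shMEX3A replicate 3 this difference was -0.09, and without shMEX3A replicate 2 it was -0.22. For each of these 3 ratios the exact two-sided permutation test gave p = 0.1, also when adjusted over the 3, which is the smallest value that 3 libraries against 3 allow.

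PMS2 and PMS1 each start beside a gene on the opposite strand, and neither neighbour was called. AIMP2, a scaffold protein of the aminoacyl-tRNA synthetase complex, starts 120 bases from PMS2 in the other direction. It had 45.3, 43.6 and 48.0 CPM in shMEX3A and 47.1, 45.5 and 47.2 CPM in shCtrl, overlapped between the arms and was not called (log2 fold change -0.03, adjusted p = 0.500, edgeR). ORMDL1, a regulator of sphingolipid synthesis, starts 286 bases from PMS1 and shares 1.89% of the exon bases of PMS1. Its levels were 12.8, 13.0 and 12.3 CPM in shMEX3A and 14.2, 12.8 and 14.9 CPM in shCtrl (log2 fold change -0.14, adjusted p = 0.0766, edgeR), with a call once shCtrl replicate 2 was left out (-0.20, adjusted p = 0.0224). Distances are counted from the outermost start in GENCODE 29.

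Downstream of mismatch recognition, most genes for excision and resynthesis fell. Of 16 genes tested 14 fell and 1 rose, with a median log2 fold change of -0.30. Over all tested genes 35.6% were called lower and 34% higher, with a median of -0.01. Falls were not particular to this list. Medians of lists given below were -0.55 for DNA replication, -0.40 for homologous recombination and Fanconi repair and -0.83 for proliferation markers. For base excision repair the median was -0.06. EXO1, the exonuclease that removes the error-bearing strand, had 10.8, 11.5 and 11.6 CPM in shMEX3A and 26.8, 28.1 and 27.6 CPM in shCtrl (log2 fold change -1.28, SE 0.0602). POLD3, an accessory subunit of DNA polymerase delta, had 20.8, 21.1 and 20.9 CPM in shMEX3A and 44.3, 47.2 and 47.7 CPM in shCtrl (-1.15, SE 0.0487). RPA3, a small subunit of the single-strand binding complex, fell by 1.12 (SE 0.109) and HMGB1, a chromatin protein that aids mismatch excision in vitro, by 0.79 (SE 0.0304) on the log2 scale. The values of EXO1, POLD3 and RPA3 lie below the 95% interval of PMS2, which ran from -0.78 to -0.59. The interval of HMGB1 ran from -0.85 to -0.72 and overlapped that of PMS2. The differences themselves were not tested.

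The clamp loader RFC fell in all 5 subunits, with log2 fold changes of -0.69 for RFC5, -0.44 for RFC3, -0.36 for RFC1, -0.34 for RFC4 and -0.27 for RFC2. GC and length offsets brought RFC3 to -0.17, still called (adjusted p = 0.00628, edgeR), and ended the call of RFC4 (-0.11, adjusted p = 0.149). PCNA, the sliding clamp that the loader places, had 105, 110 and 107 CPM in shMEX3A and 128, 117 and 117 CPM in shCtrl. It fell by 0.17 on the log2 scale (SE 0.0362), but with GC and length offsets the value was 0.07 and not called (adjusted p = 0.0571, edgeR). The other polymerase delta subunits had -0.26 for POLD2, -0.11 for POLD1 and 0.12 for POLD4, the last not called (adjusted p = 0.0922, edgeR). POLD4 passed the test without shMEX3A replicate 1 (0.19, adjusted p = 0.0156), and POLD1 lost its call without shMEX3A replicate 2 (adjusted p = 0.123), without shCtrl replicate 2 (0.0806) and with DESeq2 (0.0537). With GC and length offsets the fall of POLD1 was larger (-0.31, adjusted p = 1.19e-09, edgeR). The ligase LIG1 fell by 0.10 on the log2 scale, and its value with these offsets was -0.27 (adjusted p = 3.60e-09, edgeR). Of the RPA subunits RPA1, the largest, was the 1 gene that rose (0.13, SE 0.0310), while RPA2 fell by 0.20 on the log2 scale and lost the call with GC and length offsets (-0.03, adjusted p = 0.424, edgeR).

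**Figure D4:**
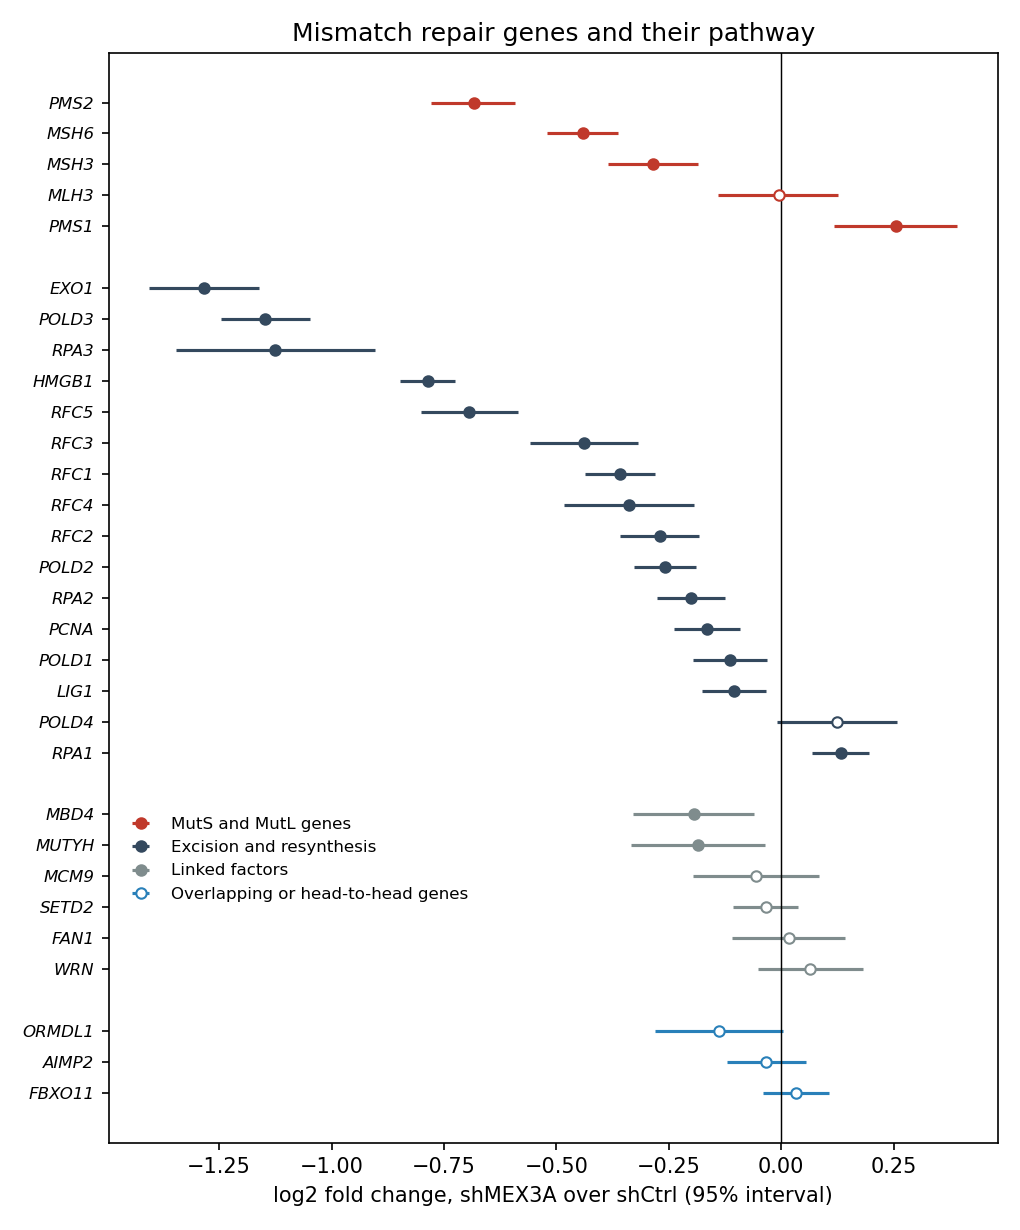
Log2 fold change of shMEX3A over shCtrl with its 95% interval for the 5 MutS and MutL genes, 16 excision and resynthesis genes, 6 linked factors and 3 neighbouring genes. Filled points passed an adjusted p of 0.05 and open points did not. EXO1, POLD3 and RPA3 lie furthest left, and PMS1 furthest right.

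A further list held genes linked to mismatch repair by other routes. Of 6 tested, 2 were called lower and 0 higher by edgeR (0 higher also at an unadjusted p under 0.05, with DESeq2 and with limma voom), with a median log2 fold change of -0.05, where 35.6% of all tested genes were called lower and 34% higher. SETD2, which writes the histone mark that MSH6 reads, had 100 ± 3.04 CPM in shMEX3A and 103 ± 2.95 CPM in shCtrl (log2 fold change -0.03, adjusted p = 0.379, edgeR). WRN, the helicase that cells with microsatellite instability depend on, had 20.5, 19.96 and 20.3 CPM in shMEX3A and 18.6, 19.5 and 19.95 CPM in shCtrl (0.06, adjusted p = 0.322, edgeR), and was called higher with GC and length offsets (0.18, adjusted p = 0.00299). The nuclease FAN1 had 0.02 and the helicase MCM9 -0.06 on the log2 scale, and neither was called. The glycosylase MBD4 was called lower (-0.20, adjusted p = 0.00952, edgeR), with a value of 0.03 (adjusted p = 0.687) under GC and length offsets. The glycosylase MUTYH was called lower (-0.18, adjusted p = 0.0256, edgeR), although its arms overlapped. That call was lost without shMEX3A replicate 1 (adjusted p = 0.298), without shCtrl replicate 1 (0.0636) and with DESeq2 (0.0740).

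The meiotic MutS genes had low counts. MSH4 had 78, 115 and 90 counts in shMEX3A and 42, 55 and 52 counts in shCtrl, which is 2.33 ± 0.396 CPM in shMEX3A and 1.27 ± 0.296 CPM in shCtrl (SD, n = 3 each). It was called higher (log2 fold change 0.88, SE 0.195, adjusted p = 0.000132, edgeR), with its lowest shMEX3A library at 1.89 CPM and its highest shCtrl library at 1.55 CPM. MSH5 reached at most 2 counts in a library and was not tested.

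Other genome maintenance lists and proliferation markers gave the following values beside those of the 5 genes, where 35.6% of all tested genes were called lower and 34% higher. Among DNA replication genes 14 of 17 fell and 0 rose by edgeR (median log2 fold change -0.55), and 0 rose at an unadjusted p under 0.05, with DESeq2 or with limma voom. The licensing factor CDC6 had the smallest p, at 17.9 ± 0.740 CPM in shMEX3A and 38.7 ± 0.264 CPM in shCtrl (SD, n = 3 each). In homologous recombination and Fanconi repair 18 of 24 fell and 2 rose (median -0.40). The smallest p among those that fell was that of FANCI (log2 fold change -0.92, SE 0.0454), and among those that rose that of RAD52 (0.35, SE 0.0654). All 8 proliferation markers fell (median -0.83), and their summed level was 624 to 647 CPM in shMEX3A and 1089 to 1108 CPM in shCtrl, with TOP2A at -0.95. The part of this lower proliferation signal in the falls of MSH6, MSH3 and PMS2 was not tested. No test of a difference between these lists and the mismatch repair genes was made.

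The cell type label was checked against marker genes. PAX8, a transcription factor of the Müllerian tract that marks most ovarian carcinomas, had 294 ± 5.20 CPM in shMEX3A and 192 ± 4.11 CPM in shCtrl (SD, n = 3 each), and the keratin KRT18 had 262 ± 10.3 CPM in shMEX3A and 160.2 ± 3.01 CPM in shCtrl. NAPSA, a marker of clear cell carcinoma, stayed under 1 CPM on average, at 0.729 CPM in shMEX3A and 0.415 CPM in shCtrl. Of the 6 clear cell and epithelial markers reported here 5 were called higher, where 34% of all tested genes were called higher. EPCAM, at 5.42 CPM in shMEX3A and 5.71 CPM in shCtrl, was not called (log2 fold change -0.06, adjusted p = 0.607, edgeR). The 6 markers summed to 839 to 863 CPM in shMEX3A and 551 to 560.3 CPM in shCtrl. Among leukocyte genes CD68 alone was tested and the other 4 had fewer than 10 counts in every library. CD68 had 8.46 ± 0.140 CPM in shMEX3A and 7.07 ± 0.530 CPM in shCtrl. It was called higher (log2 fold change 0.265, adjusted p = 0.00623, edgeR). Among fibroblast genes DCN alone was tested, at 9.07 ± 0.861 CPM in shMEX3A and 4.86 ± 0.193 CPM in shCtrl. DCN was also called higher (0.90, adjusted p = 7.41e-11, edgeR). Endothelial genes summed to 0.679 to 0.993 CPM in shMEX3A and 0.572 to 0.723 CPM in shCtrl, with KDR at 0 in every library. Of these 4 genes CDH5 was called higher, at 22, 22 and 10 counts in shMEX3A and 2, 2 and 1 counts in shCtrl (log2 fold change 3.29, SE 0.57, adjusted p = 3.39e-06, edgeR), and PECAM1, at 16, 9 and 10 counts in shMEX3A and 14, 22 and 23 counts in shCtrl, was not called (-0.79, adjusted p = 0.0666).

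The genes whose levels moved most like each of the 5 were found from centred log2 CPM over the 6 libraries, by the root mean square difference of the profiles among 9698 protein-coding genes. For MSH6 these were TDRD3 (0.0107) and MAP3K1 (0.0239), where the median gene differed by 0.238. For MSH3 they were WDR83OS (0.0157) and NDUFB11 (0.0168), for PMS2 DNM1 (0.0301) and FSTL1 (0.0304), for MLH3 RTTN (0.0214) and KANSL2 (0.0238), and for PMS1 BRD3OS (0.0121) and TGFBR3 (0.0202). The medians for these 4 were 0.184, 0.340, 0.161 and 0.201. The log2 fold changes of TDRD3 (-0.46), WDR83OS (-0.29), DNM1 (-0.67) and BRD3OS (0.26) were close to those of the gene each was matched to. A likeness over 6 libraries in 2 arms rests in part on the difference between the arms. This closeness thus follows from how the genes were picked and is no separate result. With GC and length offsets TDRD3 had -0.29 and BRD3OS 0.15.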

How the data were processed

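RNA of TOV21G cells was counted in 6 libraries, 3 of shMEX3A and 3 of shCtrl. The authors deposited 1 table of raw read counts per gene symbol, not normalized. The build was GRCh38 and the tools were edgeR 4.0.16, HTSeq 2.0.4, STAR and fastp 0.20.0, per the submitters' processing notes, which give no roles. Neither the strand setting nor the annotation release is stated in those notes. Library totals ran from 34662635 to 48228216 counts, and the 5 genes held 4843 to 8252 counts per library. Within an arm, pairs of libraries showed more than sampling noise (chi-square per degree of freedom 2.69 to 6.15, genes with 20 or more counts per pair), and all were kept as separate samples.

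Counts were filtered with filterByExpr, which left 15679 genes, scaled by TMM and tested with edgeR 4.0.16 in R 4.3.3 by the robust quasi-likelihood fit, with Benjamini-Hochberg adjustment over all tested genes and a threshold of 0.05. The common biological coefficient of variation was 3.41% with 4 residual degrees of freedom. The SE of a log2 fold change comes from its F statistic. TMM takes most genes as unchanged, so changes are relative to the other genes. Exons, gene positions and lengths are from GENCODE 29, and promoter windows from RefSeq (GRCh38.p14, all 5 genes matched) were searched with Python 3.11.15. The offsets were natural splines of GC content and transcript length with 5 degrees of freedom on 13801 genes. The other alternatives were other scalings and low-count filters, DESeq2 1.42.0, limma 3.58.1 voom, dropping each library or the mitochondrially encoded genes, and a block for the replicate number.

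The 5 genes and all lists were chosen with earlier results of these data known. Named are the 5 genes, MEX3A, all excision, meiotic MutS and linked genes, neighbours by position, the 2 nearest profiles per gene averaging 3 log2 CPM or more, and the called gene with the smallest p per direction in each other list. PMS2CL and the other PMS2 copies, PAX8, NAPSA, CD68, DCN, KDR, CDH5, PECAM1, EPCAM and NEIL3 were named after their values were seen. A neighbouring gene and a clear cell marker are not reported here.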

Additional observations from a re-analysis of the deposited data

How the results depend on the processing

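MSH6, MSH3, PMS2 and PMS1 kept direction and call, and MLH3 stayed without a call, under every alternative run. The log2 fold change ranged from -0.47 to -0.35 for MSH6, -0.31 to -0.17 for MSH3, -0.72 to -0.28 for PMS2, 0.23 to 0.44 for PMS1 and -0.04 to 0.08 for MLH3, the last with both signs. With 1 library left out the ranges were -0.47 to -0.40, -0.31 to -0.26, -0.72 to -0.66, 0.23 to 0.30 and -0.04 to 0.04 in the same order. GC and length offsets turned PCNA (0.067) and MBD4 (0.03), both then not called. They left 11 of 16 excision and resynthesis genes called lower, where 4994 of all 13801 genes tested with offsets were called lower. The cause was not tested. The count of those genes called higher was 2 on genes with a GC value without offsets, an alternative chosen after seeing the data, and 1 to 2 with 1 library left out. Over the genes named by rule and all alternatives, 797 values kept their call or stayed uncalled, some of the uncalled with a changed sign. A further 13 lost the call, 5 gained it, and 2, those of PCNA and MBD4, changed sign and lost it. Genes named only after their values were seen were not in this tally. Deviations of libraries with the same replicate number correlated between -0.0769 and 0.0772 over all tested genes. These values gave no sign that the numbers pair the arms. Counting noise enters such deviations, so a weak pairing could be missed. With the replicate block 10751 genes were called, 10699 of them shared with the unblocked test, and the 5 genes kept their calls, with -0.44 for MSH6 and -0.69 for PMS2. PMS1 and MLH3, at 446 to 738 counts per library, have the widest intervals of the 5.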

Other observations

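Base excision repair, which removes single damaged bases and was not part of the mismatch repair lists, had members called in both directions. Of 14 tested genes 7 were called lower and 3 higher in shMEX3A, with a median log2 fold change of -0.06. The total of 10 called is near the 69.7% called over all tested genes, so the count is no result about this pathway. SMUG1, a uracil glycosylase, had 26.7 ± 1.12 CPM in shMEX3A and 13.9 ± 1.28 CPM in shCtrl (SD, n = 3 each; log2 fold change 0.94, SE 0.0627). NEIL3, a glycosylase tied to replicating cells, had 5.39 ± 0.404 CPM in shMEX3A and 14.9 ± 0.619 CPM in shCtrl (-1.46, SE 0.0807). The flap endonuclease FEN1 fell by 0.86 on the log2 scale (SE 0.0454).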
